A study of Rattus norvegicus with 18 samples.

Results

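Potassium channel genes are described here as the 83 genes whose symbol begins with Kcn followed by a letter, among 14506 genes measured on arrays of medullary thyroid carcinoma, the tumour of the calcitonin-producing C cells. Each gene was represented by its probe set with exactly 1 gene symbol and, where a gene had several, by the one with the highest mean over all arrays. Of the 83 genes, 67 reached the 30th percentile of all probe set means (a log2 value of 6.32) and were tested, and 16 lay below it. The boundary ran between Kcnj9, with a mean of 6.45, and Kcns1, with a mean of 6.31.

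The tumours came from rats of the MENX model, whose strain is labelled Sprague–Dawley white eye/Wistar–Kyoto and which lack normal p27Kip1, a cell cycle inhibitor encoded by Cdkn1b, on 1 or both alleles. The 3 groups of 6 tumours were homozygous mutants at 9 months, heterozygous mutants at 9 months and heterozygous mutants at 18 months. All animals were untreated, kept under specific pathogen-free conditions and mutant for Cdkn1b, so no group is a wild-type control, and no normal thyroid was analysed here. RNA was taken from tissue, so the share of each cell type is not fixed.

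Potassium channels let potassium ions leave the cell and so set the resting voltage and end each electrical spike. C cells are excitable and release calcitonin when calcium enters through voltage-gated channels, and potassium channels therefore set how readily a C cell fires and secretes. The pore subunits fall into voltage-gated, inwardly rectifying, calcium- or sodium-activated and two-pore-domain families, and auxiliary subunits change their opening and their transport to the surface.

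The C cell character of the specimens was visible in Calca, the calcitonin gene, which measured between 13.75 and 14.12 on every array. A C cell and neuroendocrine marker list (15 of 18 genes measured) averaged 11.06 to 12.07 in homozygous tumours, 10.51 to 11.13 in young heterozygous tumours and 11.20 to 12.36 in old ones. Thyroglobulin (Tg), the product of follicular cells, was between 11.08 and 14.37, so thyroid tissue was present on every array. Skeletal muscle genes (12 of 14 measured) ranged from 6.64 to 11.64 between arrays, and parathyroid genes (4 of 4 measured) from 8.23 to 12.46. Between 9 and 18 months in heterozygous tumours 1 parathyroid gene rose and 2 fell, so that list did not move as 1. Its member Casr measured 12.6 to 13.1 in young and 13.2 to 13.6 in old heterozygous tumours. In these bulk specimens fewer cells of a type and less RNA per cell cannot be told apart. The median of each array was 7.55 to 7.65, and precision is limited by the number of arrays. Separately, 3 arrays stood apart on the first principal component over all tested genes: homozygous replicate 3 lay at 24, towards the old tumours, while replicates 4 and 5 of the 18-month group lay at -11.7 and 4.21, towards the young ones, against 35.8 to 69.9 for the other 4 old tumours.

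The comparison of heterozygous tumours at 18 and 9 months asked which potassium channel genes change as these tumours age. By limma 22 of the 67 tested genes rose and 8 fell (adjusted p under 0.05). Over all 11370 tested genes 21.6% rose and 22.4% fell, 44.1% in all. The share of potassium channel genes called in either direction, 44.8%, was near that background. Of the 67 tested genes 11 were called with a rise of at least 1 on the log2 scale and 4 with such a fall. Over all 11370 tested genes these were 444 (3.91%) and 471 (4.14%). The size of the difference had a median of 0.36 over the 67 genes and of 0.20 over all genes, and the signed medians were 0.03 and -0.0045. For 10 genes every old tumour lay above every young heterozygous one and for 4 every old tumour lay below, against 9.07% and 9% of all genes.

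Both directions moved together with cell type markers. The mean of the follicular list (10 of 12 genes measured, 8 of which fell) was 10.89 to 10.99 in young heterozygous tumours, 10.01 to 10.91 in homozygous ones and 7.36 to 10.73 in old ones. Old replicates 4 and 5 were at 10.73 and 10.45 and the other 4 old tumours at 7.36 to 9.34. All 11 measured endothelial genes (of 12) fell as well, with list means of 9.74 to 9.92 in young and 7.96 to 9.71 in old heterozygous tumours, and of the 15 C cell genes 12 rose and 1 (Gfra1) fell. With the follicular list mean as a covariate 0 of the 67 potassium channel genes passed (156 of all 11370 genes did), and with the parathyroid list 20 did, 5 of them lower. The follicular mean itself differed between young and old heterozygous tumours, so this fit cannot tell age from follicular content. The calls lost with the parathyroid list were those of Kcnab2, Kcnip2, Kcnj9, Kcnj15, Kcnk1, Kcnk6, Kcnk9, Kcnma1, Kcnmb1 and Kcnt1. With the skeletal muscle list mean as a covariate 26 passed, and Kcna2, Kcnab3, Kcnj9 and Kcnt1 lost their calls. A call can be lost without a smaller difference: Kcna2 differed by 0.61 with the follicular covariate (limma adjusted p = 0.164) and by 0.55 without it. The 12 largest rises, 0.83 to 2.00 without that covariate, were -0.094 to 0.93 with it. Leaving out old replicates 4 and 5 together gave 35 called genes, among them all 30. These arrays were chosen from the same data for lying towards the young tumours, so this count is no independent check.

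**Figure D1:**
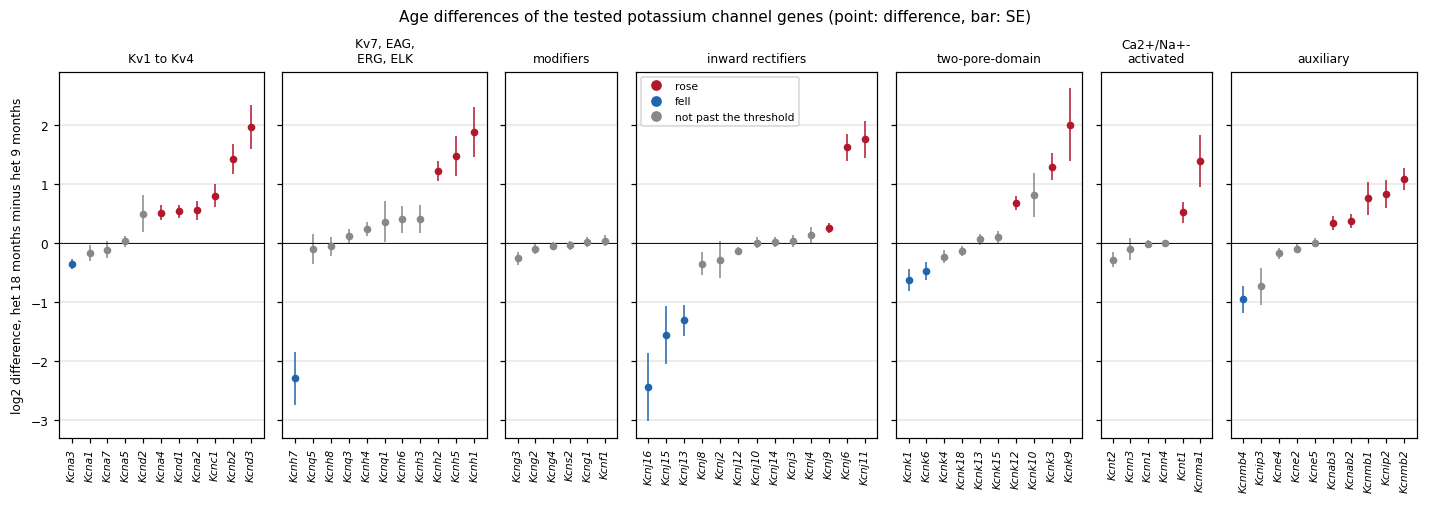
The plot of age differences by class shows the log2 difference between heterozygous tumours at 18 and at 9 months (y axis, point with its SE, n = 6 each) for each of the 67 tested potassium channel genes (x axis), with genes that rose in red, genes that fell in blue and the others in grey. Risers occur in 6 of the 7 classes, and the 4 falls beyond 1 are those of 3 inward rectifiers and of Kcnh7.

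Among the voltage-gated pore subunits Kv1 to Kv4, whose channels repolarise the membrane after a spike, 6 of 11 tested genes rose, 1 fell and 4 did not pass. Kcnd3, the Kv4.3 subunit of fast inactivating A-type currents, measured 6.79, 7.50 and 7.81 (lowest, median and highest) in young heterozygous tumours, 7.88, 8.11 and 8.62 in homozygous ones and 7.88, 9.20 and 10.68 in old ones. No old tumour overlapped the young heterozygous range, and old replicate 4 was the lowest of its group. Kcnd3 rose by 1.96 (SE 0.37, limma adjusted p = 0.000894). Kcnb2, the Kv2.2 delayed rectifier, measured 7.97 to 8.34 with a median of 8.12 in young and 8.48 to 10.20 with a median of 9.75 in old heterozygous tumours. These ranges were also separate, with a difference of 1.43 (SE 0.25, limma adjusted p = 0.000683). Homozygous tumours lay between 8.04 and 9.57 for Kcnb2, the highest of them being replicate 3.

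Smaller rises were measured for Kcnc1, a Kv3 channel of fast-spiking cells (0.80, SE 0.20), Kcna2, a Kv1 delayed rectifier of axons (0.55, SE 0.16), Kcnd1 (0.54, SE 0.11) and Kcna4 (0.52, SE 0.12), with limma adjusted p-values between 0.00144 and 0.00957. Kcna2 was measured at 9.94, 10.21 and 10.62 in young heterozygous, 9.92, 10.49 and 10.94 in homozygous and 10.53, 10.65 and 11.07 in old tumours, so that only 1 young heterozygous tumour reached into the old range. With the skeletal muscle list mean as a covariate Kcna2 missed the threshold (0.39, limma adjusted p = 0.0653). Kcna3, the Kv1.3 channel best known from T cells, was the member of this class that fell. Its values were 7.36, 7.67 and 7.76 in young heterozygous, 7.15, 7.47 and 7.76 in homozygous and 7.13, 7.29 and 7.39 in old tumours. All old tumours were below 5 of the 6 young ones, and the difference was -0.36 (SE 0.09, limma adjusted p = 0.00354). T and B cell genes (8 of 10 measured, 3 of them below the 30th percentile) averaged 6.48 to 6.69 in young and 6.39 to 6.71 in old heterozygous tumours, and their part in the fall of Kcna3 was not tested.

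The second voltage-gated class joins the Kv7 channels with the EAG, ERG and ELK channels, and 3 of its 11 tested genes rose while 1 fell. All 3 risers changed by more than 1. Kcnh1, the EAG1 channel that is active in several tumour types, measured 7.63, 8.28 and 8.38 in young heterozygous, 8.11, 8.57 and 10.48 in homozygous and 8.68, 10.26 and 11.38 in old tumours. Old and young heterozygous tumours did not overlap, and the homozygous maximum, replicate 3, lay within the old range. The difference was 1.88 (SE 0.43, limma adjusted p = 0.00249), and 0.37 (limma adjusted p = 0.581) with the follicular covariate. Kcnh5, its close relative EAG2, rose by 1.47 (SE 0.34, limma adjusted p = 0.00269), from 6.30, 7.40 and 7.61 to 7.40, 8.65 and 9.77. Here the lowest old tumour, replicate 4 at 7.40, lay within the young range.

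Kcnh2, the ERG1 (hERG) channel that helps to end spikes in heart and endocrine cells, measured 8.19, 8.34 and 8.63 in young heterozygous, 8.37, 8.77 and 9.36 in homozygous and 8.97, 9.68 and 10.02 in old tumours. Every old tumour exceeded every young heterozygous one, and the SD of the old group was 0.37. The rise was 1.22 (SE 0.17) with a limma adjusted p of 0.000244. Kcnh7, the related ERG3 channel, went the other way, with 9.68, 9.89 and 10.02 in young heterozygous, 8.74, 9.72 and 9.92 in homozygous and 5.66, 7.38 and 9.22 in old tumours. Old replicates 4 and 5 were at 9.04 and 9.22, close to the young tumours, and the other 4 lay at 7.71 or lower. Kcnh7 fell by 2.29 on the log2 scale (SE 0.45, limma adjusted p = 0.00109), and so 2 ERG genes of the same family changed in opposite directions. With the follicular covariate Kcnh7 differed by -0.50 and Kcnh2 by 0.85, neither past the threshold.

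Kcnq1, the pore subunit of the slow cardiac repolarising current that also conducts potassium in thyroid follicular cells, did not pass. It measured 8.77, 8.93 and 9.25 in young heterozygous tumours, 8.49, 9.32 and 9.74 in homozygous ones and 8.12, 9.49 and 10.46 in old ones, the old group spanning both sides of the young one. Old replicates 1 and 2 were at 8.12 and 8.21, replicate 3 at 9.16 and replicates 4, 5 and 6 at 9.83, 10.18 and 10.46. The difference of 0.36 (SE 0.34, limma adjusted p = 0.418) therefore averages over a wide spread. It moved between 0.14 and 0.60 when arrays were left out in turn: 0.60 without old replicate 1, 0.59 without replicate 2, 0.19 without replicate 5 and 0.14 without replicate 6. The other genes of this class that did not pass (Kcnq3, Kcnq5, Kcnh3, Kcnh4, Kcnh6 and Kcnh8) differed by -0.11 to 0.41. The highest of these, Kcnh3, an ELK channel, had 7.15 in old replicate 3 and 8.23 to 8.99 in the other 5 old tumours, and without that replicate it differed by 0.67 and passed (limma adjusted p = 0.00256).

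The modifier pore subunits, which form no channel alone and tune Kv2 channels, showed no called member among 6 tested genes (Kcnf1, Kcng1, Kcng2, Kcng3, Kcng4 and Kcns2). By limma 1 of them had an unadjusted p under 0.05, and their differences ran from -0.26 to 0.03. Kcng2 measured 8.36, 8.51 and 8.72 in young heterozygous and 8.27, 8.43 and 8.54 in old tumours, a difference of -0.10 (SE 0.08), or -0.061 without young heterozygous replicate 4. Kcng3, the only one with that p, differed by -0.26 (SE 0.11, limma adjusted p = 0.0616). It passed at -0.32 without young heterozygous replicate 3 (limma adjusted p = 0.0263) and without old replicate 4 (limma adjusted p = 0.0201).

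Inward rectifiers pass potassium best near the resting voltage and hold it there, and here the class split: 3 of 13 tested genes rose, 3 fell and 7 did not pass. Kcnj11, the Kir6.2 pore of the ATP-sensitive channel that couples metabolism to secretion in beta cells, measured 8.36, 8.55 and 8.83 in young heterozygous, 8.43, 8.82 and 10.45 in homozygous and 9.33, 10.49 and 11.01 in old tumours. The old tumours were all above the young heterozygous ones. In the homozygous group replicate 3 reached the old range and the other 5 stayed at 8.94 or lower. The rise was 1.75 (SE 0.32, limma adjusted p = 0.000769).

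Kcnj6, the GIRK2 subunit opened by inhibitory G protein-coupled receptors, measured 7.58, 7.78 and 7.93 in young heterozygous, 8.0, 8.19 and 8.77 in homozygous and 8.26, 9.63 and 10.08 in old tumours. Young heterozygous values overlapped with neither of the other groups. Its rise with age was 1.62 (SE 0.23, limma adjusted p = 0.000244). The GIRK partner Kcnj9 rose by 0.25 (SE 0.09, limma adjusted p = 0.0267), and Kcnj3, the GIRK1 subunit, differed by 0.04 (SE 0.11), with group means between 10.47 and 10.52.

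Kcnj16, the Kir5.1 subunit of epithelial potassium channels, had the largest fall among the potassium channel genes. It measured 10.97, 11.08 and 11.20 in young heterozygous tumours with an SD of 0.09, 9.95, 10.92 and 11.35 in homozygous ones and 6.11, 8.27 and 10.76 in old ones with an SD of 1.79. Old replicates 4 and 5, at 10.76 and 10.69, lay just below the young range, and the other 4 lay between 6.11 and 8.48. The difference was -2.43 (SE 0.58, limma adjusted p = 0.00329). Kcnj15, which encodes Kir4.2, measured 11.14, 11.69 and 12.30 in young heterozygous, 10.79, 11.46 and 12.44 in homozygous and 8.76, 9.94 and 12.11 in old tumours. Replicates 4 and 5 of the old group were inside the young range and the remaining 4 below it, a difference of -1.55 (SE 0.49, limma adjusted p = 0.0172). Kcnj13, the Kir7.1 channel of transporting epithelia, fell by 1.31 (SE 0.26, limma adjusted p = 0.00115), from 7.84, 8.09 and 8.32 to 5.72, 6.78 and 7.64, with no overlap. With the follicular list mean as a covariate Kcnj16 differed by -0.081, Kcnj15 by 0.14 and Kcnj13 by -0.41, none past the threshold. With the parathyroid covariate Kcnj15 differed by -0.87 and missed the threshold (limma adjusted p = 0.192), while Kcnj16 and Kcnj13 kept their calls.

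**Figure D2:**
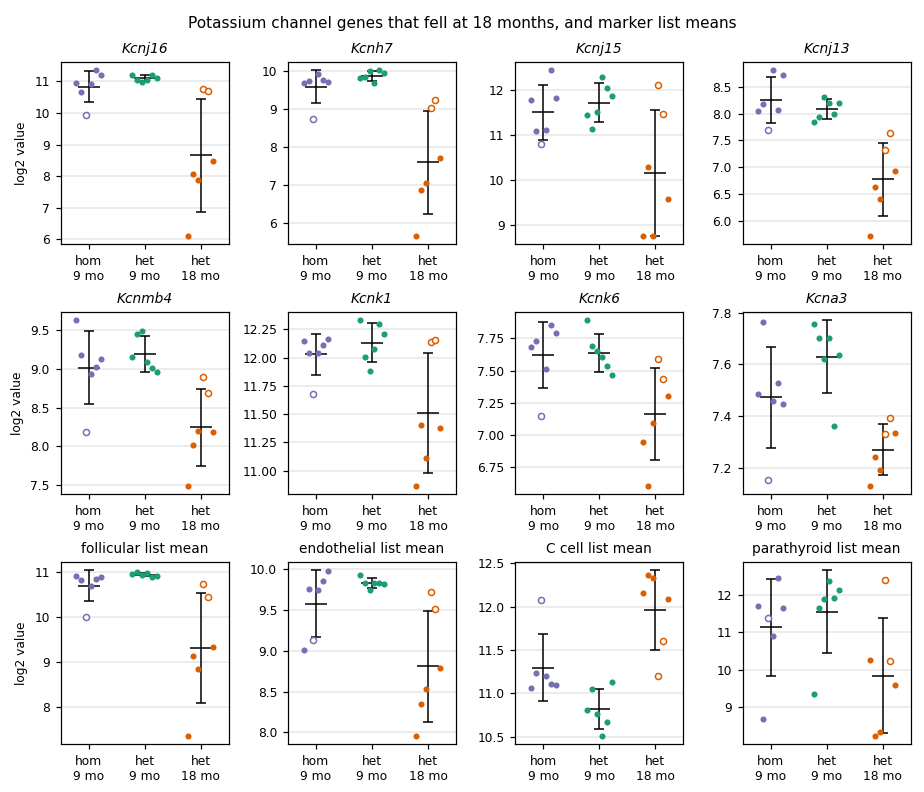
The plot of fallers gives the log2 value (y axis) of the 8 potassium channel genes that fell and of 4 marker list means in each tumour by group (x axis, 6 tumours per group), with black marks for the mean and SD and open points for homozygous replicate 3 and old replicates 4 and 5. The open points of Kcnj16, Kcnh7 and Kcnj15 in the old group sit near the young tumours, and those of the follicular list mean, at 10.73 and 10.45, do too.

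Kcnj6 and Kcnj15, which changed in opposite directions, are neighbours on rat chromosome 11 with 0 protein-coding genes between them in the RefSeq annotation of GRCr8. The same held for Kcna2, which rose, and Kcna3, which fell, on chromosome 2. Kcnj16 fell beside Kcnj2 on chromosome 10, which differed by -0.28 (SE 0.32), and Kcnj9 rose beside Kcnj10 on chromosome 13, which differed by 0.0067 (SE 0.09). Kcnj11 lies next to Abcc8, the gene of its regulatory subunit, on chromosome 1, and both rose. The 250 bases before the transcript start that the RefSeq promoter table (GRCr8) gives are shown for the neighbouring pair and for Kcnd3 and Kcnj16, a large rise and the largest fall, to set the letters of genes that changed in opposite directions side by side. They are written 5′ to 3′ on the strand of the gene, and capitals mark every match to a searched motif.
Kcnj6: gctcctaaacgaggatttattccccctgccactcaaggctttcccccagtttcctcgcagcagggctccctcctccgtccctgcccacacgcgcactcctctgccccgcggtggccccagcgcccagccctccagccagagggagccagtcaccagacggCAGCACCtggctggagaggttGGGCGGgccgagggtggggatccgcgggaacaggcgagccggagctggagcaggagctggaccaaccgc
Kcnj15: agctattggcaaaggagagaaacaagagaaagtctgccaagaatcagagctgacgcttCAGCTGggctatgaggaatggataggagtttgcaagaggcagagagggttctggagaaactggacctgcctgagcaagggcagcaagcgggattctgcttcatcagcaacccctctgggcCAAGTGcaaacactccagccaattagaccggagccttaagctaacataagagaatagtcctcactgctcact
Kcnd3: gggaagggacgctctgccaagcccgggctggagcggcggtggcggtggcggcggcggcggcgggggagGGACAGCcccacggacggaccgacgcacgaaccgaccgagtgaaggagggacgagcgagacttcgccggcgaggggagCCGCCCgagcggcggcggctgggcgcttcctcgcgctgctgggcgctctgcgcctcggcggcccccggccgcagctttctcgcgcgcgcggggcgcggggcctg
Kcnj16: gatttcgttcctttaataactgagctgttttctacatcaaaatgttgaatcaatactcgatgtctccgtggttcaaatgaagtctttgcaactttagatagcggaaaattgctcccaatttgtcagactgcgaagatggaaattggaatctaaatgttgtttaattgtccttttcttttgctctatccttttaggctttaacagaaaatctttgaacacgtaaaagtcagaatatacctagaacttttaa

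These windows lie at chr11:47778349-47778598 (minus strand) for Kcnj6, chr11:48070700-48070949 (plus strand) for Kcnj15, chr2:195626066-195626315 (plus strand) for Kcnd3 and chr10:96517074-96517323 (plus strand) for Kcnj16. The Kcnj6 and Kcnd3 windows abut the start of the RefSeq gene, while those of Kcnj15 and Kcnj16 end 23997 and 27995 bases inside it, at a later transcript start. Their GC content was 69.2%, 50.8%, 79.6% and 33.6% in that order. Promoters were found for 58 of the 83 genes, 15 of 22 that rose and 6 of 8 that fell, of which 32, 8 and 4 lie at a start inside the gene. In the same table the median GC content was 67.6% for the 15, 60% for the 6, 59.6% for the 58 and 52% for 27457 promoters of all genes. Motifs were searched on both strands and no searched motif is contained in another. The GC box GGGCGG, bound by Sp factors, stood in 9 of 15, 3 of 6, 48.3% of the 58 and 32.4% of all promoters. CAGCACC and GGACAGC are the left and right parts of the RE1 element, through which the repressor REST silences neuronal genes. They stood in 2 and 3 of the 15 and in 0 of the 6, against 5.17% and 12.1% of the 58 and 5.51% and 5.34% of all. The E-box CAGCTG was in 0 of 15 and 2 of 6 (24.1% of the 58, 11.9% of all). CAAGTG of the NKX2-1 site was in 0 and 1 (3.45%, 11.7%) and TATAAA in 0 and 1 (3.45%, 13.1%). Neither TGTTTAC, a FOXA site, nor the cAMP element TGACGTCA matched in any of the 58 promoters, with 3.25% and 1.7% of all. A match describes letters in this window only.

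Two-pore-domain channels carry the background leak current, and 3 of 10 tested genes rose while 2 fell. Kcnk9, the acid-sensitive TASK-3 channel, had the largest rise among the potassium channel genes and the least even one. It measured 6.09, 6.36 and 6.68 in young heterozygous, 6.03, 6.69 and 7.07 in homozygous and 6.38, 8.28 and 10.93 in old tumours. Old replicates 1, 2 and 3 reached 9.24, 9.99 and 10.93, replicate 6 reached 7.31, and replicates 4 and 5, at 6.46 and 6.38, lay within the young range and near the filter value of 6.32. The rise of 2.00 (SE 0.62, limma adjusted p = 0.0146) thus came from 4 of 6 old tumours. It was 0.38 (limma adjusted p = 0.825) with the follicular covariate and 1.29 (limma adjusted p = 0.151) with the parathyroid covariate.

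Kcnk3, the related TASK-1 channel, rose more evenly, with 7.89, 8.30 and 8.59 in young heterozygous, 8.23, 8.68 and 9.59 in homozygous and 8.70, 9.71 and 10.03 in old tumours. Each old tumour was above all young heterozygous ones (1.29, SE 0.22, limma adjusted p = 0.000615). Kcnk12 rose by 0.68 (SE 0.12, limma adjusted p = 0.000712), also without overlap. Kcnk10 differed by 0.81 (SE 0.38) and did not pass (limma adjusted p = 0.0901). It passed without old replicate 4 (1.06, limma adjusted p = 0.0185) and without old replicate 5 (1.07, limma adjusted p = 0.0172). Kcnk4 differed by -0.23 (SE 0.11) and passed at -0.31 without old replicate 4 (limma adjusted p = 0.0159). The falls were those of the TWIK channels. Kcnk1 (TWIK-1) measured 11.88, 12.14 and 12.33 in young heterozygous and 10.87, 11.39 and 12.16 in old tumours, where replicates 4 and 5 at 12.14 and 12.16 stayed inside the young range. Its difference was -0.62 (SE 0.19, limma adjusted p = 0.0121), and that of Kcnk6 (TWIK-2) was -0.48 (SE 0.15, limma adjusted p = 0.0152). With the follicular covariate these became 0.069 and -0.088, and with the parathyroid covariate -0.49 and -0.38, none past the threshold.

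Calcium- and sodium-activated channels slow firing after calcium or sodium has entered, and 2 of 6 tested genes rose. Kcnma1, the pore of the large-conductance BK channel, measured 7.50, 8.11 and 9.04 in young heterozygous, 8.82, 9.26 and 10.36 in homozygous and 7.64, 10.17 and 10.54 in old tumours. Old replicate 4, at 7.64, was among the lowest of all arrays, and old replicates 1, 2 and 3 were above every other tumour. The rise was 1.38 (SE 0.44, limma adjusted p = 0.018). It was 0.051 (limma adjusted p = 0.971) with the follicular covariate and 0.82 (limma adjusted p = 0.188) with the parathyroid covariate. The parathyroid list averaged 9.34 to 12.37 in young and 8.23 to 12.40 in old heterozygous tumours. Kcnt1, a sodium-activated channel, rose by 0.52 (SE 0.18, limma adjusted p = 0.0251). It missed the threshold with the skeletal muscle covariate (0.38, limma adjusted p = 0.13) and with the parathyroid covariate (0.47, limma adjusted p = 0.109). Kcnn4, the intermediate-conductance channel of blood cells and epithelia, measured between 6.88 and 7.27 on all arrays. Its age difference was -0.0063 (SE 0.06), of either sign when arrays were left out in turn (-0.035 to 0.014) and 0.016 after median centring.

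Of the auxiliary subunits 5 of 10 tested genes rose and 1 fell. Kcnmb2, the beta subunit that makes BK channels inactivate, measured 7.63, 7.81 and 8.27 in young heterozygous, 7.70, 8.13 and 8.45 in homozygous and 8.14, 8.95 and 9.71 in old tumours. Only 1 young and 1 old tumour overlapped, and the rise was 1.08 (SE 0.19, limma adjusted p = 0.000664). Kcnmb4, the beta subunit of neuronal BK channels, fell by 0.95 on the log2 scale (SE 0.23, limma adjusted p = 0.00335), from 8.96, 9.12 and 9.50 to 7.48, 8.19 and 8.89, without overlap. Among the BK subunits, then, Kcnma1, Kcnmb2 and Kcnmb1 rose and Kcnmb4 fell. The rise of Kcnmb1, the smooth muscle beta subunit (0.75, SE 0.27, limma adjusted p = 0.0341), was unevenly spread, with 7.55 to 9.50 in old against 7.36 to 7.80 in young heterozygous tumours. With the follicular covariate Kcnmb1 differed by 0.020 (limma adjusted p = 0.985). Smooth muscle and pericyte genes (10 of 10 measured, 1 fell) averaged 9.27 to 9.42 in young and 8.88 to 9.58 in old heterozygous tumours, and their part was not tested.

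Kcnip2, a calcium sensor that brings Kv4 channels to the surface, measured 7.08, 7.24 and 7.42 in young heterozygous, 7.07, 7.45 and 8.20 in homozygous and 7.23, 8.07 and 9.06 in old tumours. It rose by 0.83 (SE 0.24, limma adjusted p = 0.0113) on the probe set used, while its other probe set differed by 0.127. Kcnip3, known as calsenilin or DREAM, is a calcium sensor that also binds DNA and presenilins. It measured 11.84, 12 and 12.16 in young heterozygous, 11.54, 11.97 and 12.18 in homozygous and 9.35, 11.64 and 12.07 in old tumours, the lowest being old replicate 1. Its difference of -0.73 (SE 0.32, limma adjusted p = 0.0713) went to -0.35 without that tumour and then passed (limma adjusted p = 0.0465), as it did at -0.89 without old replicate 5 (limma adjusted p = 0.0305). The beta subunits of Kv1 channels, Kcnab2 and Kcnab3, rose by 0.37 (SE 0.12) and 0.33 (SE 0.12).

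**Figure D3:**
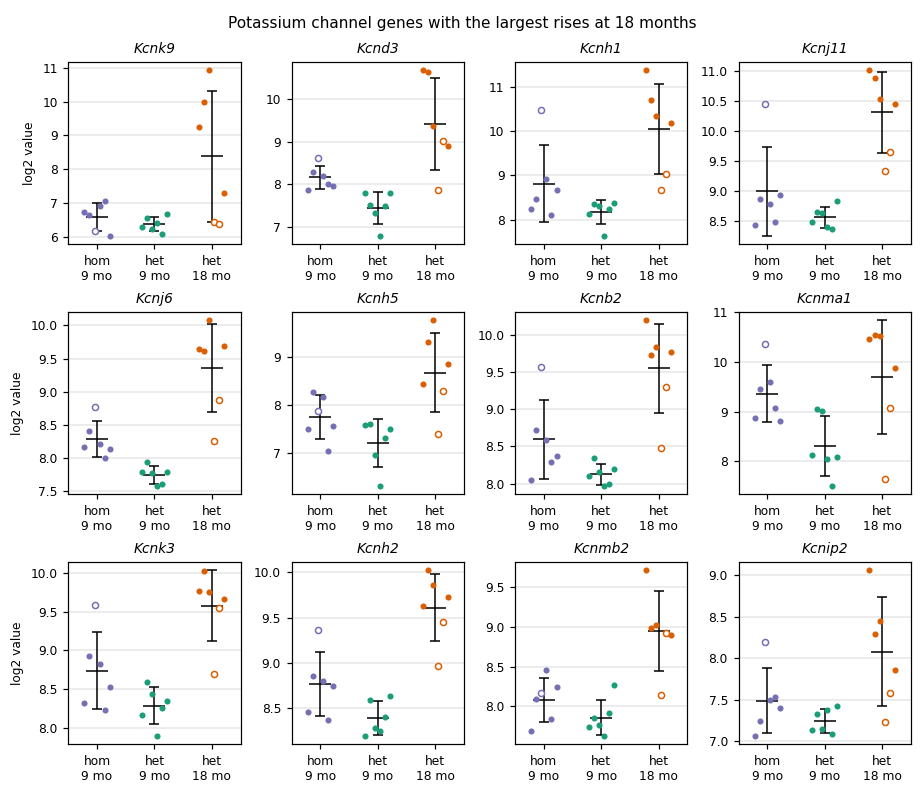
The plot of risers gives the log2 value (y axis) of the 12 potassium channel genes with the largest rises in each tumour by group (x axis, 6 tumours per group), with black marks for the mean and SD and open points for homozygous replicate 3 and old replicates 4 and 5. Kcnj11, Kcnb2, Kcnk3 and Kcnh2 show old and young heterozygous tumours apart, while 2 old tumours of Kcnk9, at 6.46 and 6.38, lie at the young level.

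Leaving out each of the 18 arrays in turn gave 26 to 34 called potassium channel genes in this comparison. The calls lost in any of these 18 fits were those of Kcnmb1, Kcnab3, Kcnj9 and Kcnt1, each lost without 1 or more of the 6 young heterozygous tumours or old replicates 1, 2, 3 and 6. Of the 22 risers, 14 had old replicates 4 and 5 as the lowest pair of the old group (63.6%, against 64.2% of all genes that rose), and of the 8 fallers 7 had them as the highest pair (87.5%, against 65.4%). Homozygous replicate 3 was the highest homozygous tumour for 14 of the 22 risers and the lowest for all 8 fallers, against 79.3% and 70.1% of all genes called in the same directions.

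**Figure D4:**
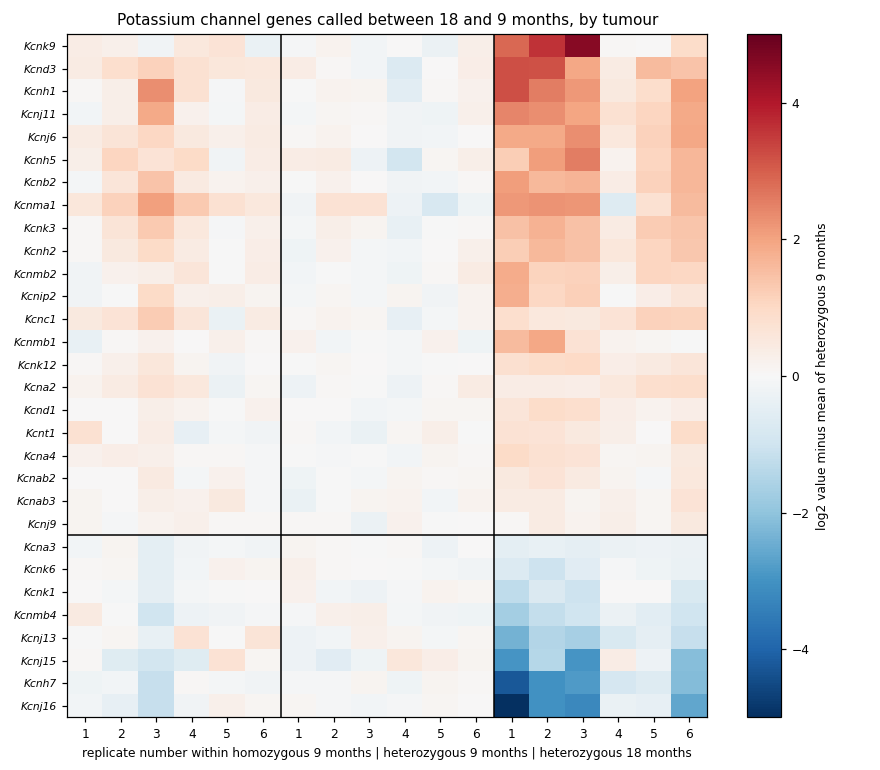
The heat map shows the 30 called potassium channel genes (rows, risers above the line and fallers below) in the 18 tumours (columns, by group and replicate), coloured by the log2 value minus the mean of the heterozygous tumours at 9 months. Old replicates 4 and 5 are paler than the other old tumours in most rows, and homozygous replicate 3 has the colours of the old tumours in several, as for Kcnj11 at 10.45.

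Partner genes outside the Kcn symbols were taken from a list of 45, of which 38 had a probe set and 31 were tested. With age 11 rose and 4 fell, against 21.6% and 22.4% of all tested genes (44.1% in all). Abcc8, the sulfonylurea receptor that completes the ATP-sensitive channel with Kcnj11, rose by 1.78 (SE 0.28, limma adjusted p = 0.000389), from 9.19, 9.38 and 9.80 to 10.46, 11.49 and 11.63. All old tumours exceeded all young heterozygous ones, as for Kcnj11. Abcc9, the receptor of vascular ATP-sensitive channels, differed by -0.17 (SE 0.22), and its usual pore partner Kcnj8 by -0.35 (SE 0.19), neither past the threshold, although Kcnj8 passed with only these 2 groups fitted (limma adjusted p = 0.047). Dpp6, a peptidase-like partner of Kv4 channels, rose by 2.22 (SE 0.55, limma adjusted p = 0.00439), where Kcnd3 and Kcnd1 rose and Kcnd2 differed by 0.50 (SE 0.31). Without old replicate 3, at 7.08 the lowest of its group, Kcnd2 differed by 0.79 and passed (limma adjusted p = 0.0152).

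Of 5 tested scaffolds of Kv1 and Kv2 channels 2 rose, Dlg4 (PSD-95) by 1.00 (SE 0.22) and Amigo1, an adhesion protein of Kv2 channels, by 0.63 (SE 0.15). Among 3 HCN channels, which carry the depolarising pacemaker current, Hcn4 rose by 1.02 (SE 0.19) and Hcn3 by 0.34 (SE 0.09), while Hcn2 differed by -0.01 (SE 0.09). Of 10 tested sodium pump subunits and regulators 2 rose and 3 fell: the regulator Fxyd3 rose by 2.02 (SE 0.46) and the beta subunit Atp1b3 by 0.48 (SE 0.11). The potassium-chloride cotransporter Slc12a4 rose by 0.52 (SE 0.08) and Slc12a7 fell by 0.51 on the log2 scale (SE 0.13). The lysosomal channel Tmem175 rose by 0.34 (SE 0.07) and the TRIC channel Tmem38b by 0.34 (SE 0.12), and limma adjusted p-values of these 10 called genes ran from 0.000373 to 0.0239. Tmem38b lost its call (0.30 to 0.31) without young heterozygous replicate 1 or 2 or without old replicate 2 or 6. The sodium pump genes that fell, Fxyd1, Atp1b2 and Fxyd4, each lost the call in several fits that left out a single array. With the follicular covariate Hcn4 differed by 1.32 and still passed (limma adjusted p = 0.0322), while all other called partner genes missed the threshold. In that fit Abcc8 differed by 1.01 (limma adjusted p = 0.091), Dpp6 by 0.42, Fxyd3 by 0.38 and Slc12a4 by 0.42. Neither of 2 tested gamma subunits of BK channels, Lrrc26 and Lrrc55, passed, with differences of 0.05 and -0.32. Without old replicate 2 Lrrc55 differed by -0.54 and passed (limma adjusted p = 0.0243).

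The comparison of homozygous with heterozygous tumours at 9 months asked what the second mutant allele changes at the same age. By limma 0 of the 67 potassium channel genes passed, as 0% of all 11370 genes did. At an unadjusted p under 0.05 there were 9 of the 67, against 8.75% of all. The size of the difference had a median of 0.14, against 0.085 over all genes. Homozygous values lay wholly above heterozygous ones for Kcnj6 and Kcnd3, 2 genes of 67, against 0.651% of all tested genes, and wholly below for 0, against 0.915%.

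Kcnma1 showed the largest difference of the genes named here. Homozygous tumours measured 8.82, 9.26 and 10.36 and heterozygous ones 7.50, 8.11 and 9.04, so that 4 of 6 homozygous tumours lay above every heterozygous one. The difference of 1.06 (SE 0.44, limma adjusted p = 0.533) was 0.86 to 1.20 without each array in turn. Kcnj6 differed by 0.54 (SE 0.23, limma adjusted p = 0.535), Kcnc1 by 0.52 (SE 0.20), Kcnh8, an ELK channel, by 0.37 (SE 0.16) and Kcnd3 by 0.71 (SE 0.37). Kcnj11 differed by 0.43 (SE 0.32), of which 0.14 was left without homozygous replicate 3, and without that tumour Kcnh8 was at 0.23. Kcnq1 was at 0.30 (SE 0.34), or 0.46 without homozygous replicate 5. Kcnn4 was at -0.093 (SE 0.06), or -0.06 without homozygous replicate 3.

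Of the 67 genes 30 had lower means in homozygous tumours, and the 4 with the smallest p are given here. Kcne4, an inhibitory auxiliary subunit of Kv1 and Kv7 channels, measured 6.73, 6.91 and 7.10 in homozygous and 7.05, 7.17 and 7.42 in heterozygous tumours, with 2 homozygous tumours inside the heterozygous range. Its difference was -0.27 (SE 0.09) and its limma adjusted p of 0.432 was the smallest among the 67 genes. Kcnq3, a Kv7 subunit of the neuronal M-current, differed by -0.33 (SE 0.13), the muscle inward rectifier Kcnj12 by -0.14 (SE 0.06) and the TRESK channel Kcnk18 by -0.17 (SE 0.08). Skeletal muscle genes averaged 6.93 to 11.64 in homozygous and 9.18 to 11.34 in heterozygous tumours of this age, and their part in the values of Kcnj12 was not tested.

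In the third comparison, of homozygous tumours at 9 months with heterozygous ones at 18 months, genotype and age differ together and cannot be told apart. It shares the old tumours with the age comparison. By limma 8 of the 67 genes were higher in homozygous tumours and 15 lower, against 16.2% and 13.6% of all tested genes (29.8% in all). Higher in homozygous tumours were Kcnj16 (2.17, SE 0.58), Kcnh7 (2.00, SE 0.45), Kcnj13 (1.48, SE 0.26), Kcnj15 (1.34, SE 0.49) and Kcnmb4 (0.77, SE 0.23). Lower were Kcnk9 (-1.79, SE 0.62), Kcnj11 (-1.32, SE 0.32), Kcnd3 (-1.25, SE 0.37), Kcnh1 (-1.24, SE 0.43) and Kcnj6 (-1.08, SE 0.23), with limma adjusted p-values of these 10 genes from 0.00462 to 0.0482. Leaving out arrays in turn, Kcnj15 (1.06 to 1.73) lost its call in all fits except those without homozygous replicate 3 and without old replicates 4 or 5. Kcnk9 (-2.19 to -1.28) lost it without any 1 homozygous tumour and without old replicates 1, 2 or 3. Kcnh1 (-1.58 to -0.98) lost it without any homozygous tumour but replicate 3 and without old replicates 1, 2, 3 or 6, and Kcnd3 without old replicate 2. Groups were wholly apart for Kcnj13 alone of the 67, against 2.25% of all genes. Fewer genes passed with only these 2 groups in the fit (6), with the parathyroid covariate (6), with the follicular covariate (0), without homozygous replicate 5 (14) or 6 (14) and without old replicate 1 (15) or 2 (14). The higher genes numbered 5 without each of these 4 arrays and also without homozygous replicate 1 or old replicate 3, and the lower ones 9 without homozygous replicate 5 or 6 or old replicate 2.

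The spread between tumours of 1 group was wide for these genes. The median SD of the 67 genes was 0.256 in homozygous, 0.148 in young heterozygous and 0.295 in old tumours, against 0.16, 0.107 and 0.191 over all tested genes. Within the old group Kcnk9 had an SD of 1.93, Kcnj16 of 1.79 and Kcnj15 of 1.40, and Kcnn4 of 0.09. The 16 genes below the 30th percentile were Kcna6, Kcna10, Kcnc2, Kcnv1, Kcnv2, Kcns1, Kcns3, Kcnj1, Kcnj5, Kcnk2, Kcnab1, Kcne1, Kcne3, Kcnip1, Kcnip4 and Kcnmb3. With no filter all 83 genes were tested, and the same 30 were called with age.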

How the data were processed

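Total RNA of 18 tumours was measured on 18 Affymetrix arrays. The authors deposited 1 log2 value per probe set and array. The submitters' processing notes name RMA and, at version 1.3.0.187, the Affymetrix Expression Console, with no role or order. Labelling followed whole-transcriptome amplification, as the labels' protocols record. Gene symbols came from GEO's platform annotation. All 83 genes were found in RefSeq (GRCr8), and 1 probe set with the symbols of 2 Kcn genes was left out.

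With limma 3.58.1 (R 4.3.3), 11370 genes were fitted with 1 mean per group, and two-sided p-values were Benjamini-Hochberg adjusted over all of them. All SEs and adjusted p-values are limma's. Named were the 12 largest called rises and falls with age, the 5 largest each way in the third comparison, the 4 smallest p each way between genotypes, the gene with the highest mean of each class, Kcnq1, Kcnj11, Kcnma1, Kcnn4, and up to 2 called genes per partner list. Other genes were named after their values were seen. The genes and lists were chosen with earlier results of these data known. Marker lists not described in the report averaged 8.68 to 9.50 (fibroblast, 6 genes fell with age), 8.36 to 9.31 (macrophage, 3 rose and 1 fell), 6.93 to 7.56 (Schwann cell, 2 fell) and 6.92 to 9.23 (adipocyte, 8 fell) over all arrays. The fit was tested on simulated data with 11170 unchanged genes and differences of 0.5, 1 and 2. In the age comparison it found 47 of 67, 61 of 67 and 64 of 66 changed genes and called 26 unchanged ones. In the third it found 37 of 67, 64 of 67 and 65 of 66 and called 51 unchanged ones. In the genotype comparison it found 49 of 67, 61 of 67 and 65 of 66 and called 2 unchanged ones. Calls with age and in the third comparison may thus include more false ones than the threshold implies. Alternatives are given in the closing section.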

Additional observations from a re-analysis of the deposited data

Results flagged for a closer look

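A tumour was singled out where its gap to the nearest tumour of its group of 6 was large against the group's range (above Dixon's 95% critical value). This held for 12 of 129 groups of values (43 genes in 3 groups, 9.3%), and chance gives about 1 in 20. Homozygous replicate 3 accounted for 6 of them. It was highest for Kcnj11 at 10.45 (next 8.94), Kcnh1 at 10.48 (next 8.92), Dpp6 at 9.81 and Amigo1 at 10.20, and lowest for Kcnh7 at 8.74 (next 9.68) and Kcnk1 at 11.68 (next 12.04). Its C cell list mean was 12.07, against 11.24 or less in the other homozygous tumours, and its follicular list mean 10.01, against 10.69 or more.

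In the 18-month group replicate 4 was lowest for Kcnk3 at 8.70 (next 9.55) and for Tmem38b at 8.77, and replicate 1 was lowest for Kcnip3 at 9.35 (next 11.21). Replicate 1 also had the lowest follicular list mean (7.36). Among young heterozygous tumours replicate 4 was lowest for Kcnh1 at 7.63, replicate 5 lowest for Kcna3 at 7.36 and replicate 6 highest for Tmem38b at 9.26.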

How the results depend on the processing

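Between 18 and 9 months the count of 30 called potassium channel genes stayed within 1.5 times under all alternatives except the follicular covariate, where 0 were called (0 higher, 0 lower). With the parathyroid covariate 5 were lower. Leaving out each array gave 26 to 34. The third comparison gave 6 genes (2 higher, 4 lower) with only its 2 groups fitted and 6 (2 and 4) with the parathyroid covariate. It gave 0 (0 and 0) with the follicular covariate and 14 to 29 (5 to 10 higher, 9 to 20 lower) without each array. The genotype comparison gave 0 under every alternative run.

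Signs turned with the follicular covariate for Kcnip2 (-0.094), Kcnj15 (0.14), Kcnk1 (0.069), Kcnip3 (0.38) and Kcnn4 (0.031) with age, and for Kcnj15 (-0.085) and Kcnh1 (0.041) in the third comparison. With the muscle covariate Kcnq1 was at -0.032 and Kcnn4 at 0.034. Kcnn4 was also at 0.016 after median centring, 0.021 after quantile normalization, 0.047 with the parathyroid covariate and -0.035 to 0.014 without each array. In these cases the cause was not tested. Over single genes 1777 values kept direction and side of the threshold, 106 lost and 5 gained the call. Replicate numbers were shared between groups, and whether they pair tumours or mark a batch was not settled. Same-numbered deviations correlated at -0.127 to 0.327 in the age comparison, above 0.1 in 4 of 6 pairs. With the replicate number as a block 30 potassium channel genes were called with age, 29 of them shared: Kcng3 gained its call (-0.26, limma adjusted p = 0.029) and Kcnab3 lost it (0.33, limma adjusted p = 0.0563). A fit with 1 variance per group, chosen after seeing the data, called 29.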
